A study of Homo sapiens with 7 samples.

Results

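The cancer-testis antigen families described here are MAGEA, MAGEB, MAGEC, SSX, GAGE, PAGE, XAGE, CTAG and the single gene PRAME. Their rows were taken by gene symbol, as family name plus number and copy letter, and the pattern took 73 of the 57773 rows of the gene count table. The families were chosen with earlier results of these data known. RNA sequencing was done on MDA-MB-231, a human triple-negative breast cancer cell line, in 5 libraries: 2 labelled KD and 3 labelled parent. The labels do not spell out KD. The treatment protocol speaks of triple-negative cells knocked out for APE1, carrying a doxycycline-inducible vector for APE1 or its mutants and selected with blasticidin, and does not say which libraries it covers, whether doxycycline was given to them, or whether KD is 1 clone. Replicates are not said to be separate cultures, so every p-value measures only the spread between these libraries, which may be technical. The title of the series names APE1 (gene symbol APEX1), a base excision repair endonuclease, and its interaction with G-quadruplexes, the 4-stranded folds of guanine-rich DNA. Libraries from chromatin immunoprecipitation in the same series were not analysed here.

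Cancer-testis antigens are proteins made mainly in germ cells of the testis and in many tumours, and most healthy adult tissues keep their genes silent by DNA methylation of the promoter. Apart from PRAME, the members lie on the X chromosome in clusters of duplicated, often near-identical copies. MAGE proteins bind RING-type ubiquitin ligases, SSX proteins are repressors that sit on chromatin with Polycomb complexes and are one side of the SS18-SSX fusion of synovial sarcoma, CTAG1B encodes the antigen NY-ESO-1, and PRAME is a substrate receptor of a cullin ubiquitin ligase. Many were found because T cells of patients recognise peptides from them.

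Total counts per library ran from 14601078 to 18049386, and 22725 to 23623 genes had at least 1 count. APEX1 (ENSG00000100823) had 640 and 753 counts in KD and 1936, 1936 and 2413 in parent. Its level was 45.8 ± 3.48 CPM (read counts scaled to library size; SD, n = 2) in KD and 130.2 ± 5.84 CPM (SD, n = 3) in parent, a log2 fold change of -1.51 ± 0.0727 (SE; edgeR quasi-likelihood test, Benjamini-Hochberg adjusted p = 5.87e-05). VIM, a mesenchymal marker of this line, stood at 2149 and 2261 CPM in KD and parent, ESR1 had no count and PGR had 1 parent library with any. Of the 10 marker rows of the line that were tested, 6 were called (60%, beside 21.5% over all genes). CD44 was lower in KD (log2 fold change -0.34, edgeR adjusted p = 0.00951), the epithelial gene CDH1 was 2.19-fold higher (edgeR adjusted p = 0.00587), and SPARC, low for a marker of the line at 4.83 and 0.675 CPM, was 7.15-fold higher (edgeR adjusted p = 0.00134). AXL (-0.32, edgeR adjusted p = 0.0296) and MSN (-0.20, 0.0317) were lower and ERBB2, listed as absent or low but at 161 and 133 CPM, was higher (edgeR adjusted p = 0.0426). AXL lost its call without KD replicate 1 (0.128) and parent replicates 2 and 3 (0.0635 and 0.0695), MSN without KD replicates 1 and 2 (0.139 and 0.0561) and parent replicates 2 and 3 (0.0675 and 0.0986), and ERBB2 without the same 4 libraries (0.218, 0.111, 0.109 and 0.0936). The part of these marker changes in the results below was not tested. Of the 14 marker rows found for germ, blood, endothelial and basal cells, 3 had a count: CD68, SYCP3 and ACR. Summed, they gave 129 to 130 CPM in KD and 96.8 to 119 CPM in parent. CD68 was not called (log2 fold change 0.31, edgeR adjusted p = 0.0612). In edgeR it passed with library totals alone (adjusted p = 0.0480), with the replicate block (0.00285) and without parent replicate 3 (0.00553). The germ cell markers DDX4, DAZL, PRM1, PRM2 and TNP1 were at 0 in all 5 libraries.

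Of the 73 rows, 47 had no count in any library and 26 had at least 1. The filter on low counts left 11, and each of these 11 was called at an adjusted p below 0.05: 7 higher in KD and 4 lower. Among all 16198 genes tested, 21.5% were called, 9.15% higher and 12.4% lower. The members' count is not read against that share, because each of the 4 lower members passed the filter only through parent, where it was high, SSX8 passed only through KD, where it was high, and 5 of the 7 higher members are copies that carry 1 signal. The members called lower were MAGEA3, MAGEB2, MAGEC1 and MAGEC2, and those called higher were SSX1, SSX8 and the 5 copies of XAGE1. Every MAGE family sum was lower in KD and both the SSX and XAGE sums were higher. In bulk RNA, fewer cells with a transcript and less transcript per cell cannot be told apart.

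The bases before the start site of 6 members are shown because these genes all lie on the X chromosome yet differ in direction between the groups, and because DNA methylation at CpG pairs and guanine-rich folds in such stretches are what the field examines at these genes. They are RefSeq sequences of GRCh38.p14, the 250 bases before the annotated start, read 5′ to 3′ on the gene's strand. Capitals mark GGATGTG or its reverse complement CACATCC, which holds the GGAT form of the core that ETS transcription factors bind and was picked after reading these windows. The first pair was higher in KD, SSX1 at chrX:48255142-48255391 on the plus strand and XAGE1A at chrX:52495627-52495876 on the plus strand.
SSX1: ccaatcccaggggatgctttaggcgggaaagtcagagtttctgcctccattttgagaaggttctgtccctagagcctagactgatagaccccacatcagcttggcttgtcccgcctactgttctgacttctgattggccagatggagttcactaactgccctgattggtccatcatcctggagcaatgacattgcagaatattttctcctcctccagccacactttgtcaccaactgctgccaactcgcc
XAGE1A: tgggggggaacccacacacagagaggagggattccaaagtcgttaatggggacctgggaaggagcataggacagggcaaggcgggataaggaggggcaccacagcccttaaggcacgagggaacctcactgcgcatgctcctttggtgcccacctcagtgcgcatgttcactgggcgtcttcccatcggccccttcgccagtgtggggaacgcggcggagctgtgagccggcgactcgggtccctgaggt
The others were lower in KD: MAGEA3 at chrX:152698544-152698793 (plus strand), MAGEB2 at chrX:30215313-30215562 (plus strand), MAGEC1 at chrX:141903644-141903893 (plus strand) and MAGEC2 at chrX:142205291-142205540 (minus strand).
MAGEA3: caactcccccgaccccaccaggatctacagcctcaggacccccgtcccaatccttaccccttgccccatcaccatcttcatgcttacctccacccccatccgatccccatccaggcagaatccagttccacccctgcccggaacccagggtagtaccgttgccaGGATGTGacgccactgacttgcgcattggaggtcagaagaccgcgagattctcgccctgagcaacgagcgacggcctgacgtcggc
MAGEB2: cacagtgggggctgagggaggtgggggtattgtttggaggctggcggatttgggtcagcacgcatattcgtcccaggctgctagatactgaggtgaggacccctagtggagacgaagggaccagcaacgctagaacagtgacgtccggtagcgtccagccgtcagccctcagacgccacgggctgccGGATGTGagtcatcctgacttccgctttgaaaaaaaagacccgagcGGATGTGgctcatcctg
MAGEC1: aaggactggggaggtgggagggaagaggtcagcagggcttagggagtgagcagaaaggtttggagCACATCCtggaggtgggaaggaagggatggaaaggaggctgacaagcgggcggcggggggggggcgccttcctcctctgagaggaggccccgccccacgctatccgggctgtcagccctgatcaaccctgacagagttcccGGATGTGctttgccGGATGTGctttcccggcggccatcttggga
MAGEC2: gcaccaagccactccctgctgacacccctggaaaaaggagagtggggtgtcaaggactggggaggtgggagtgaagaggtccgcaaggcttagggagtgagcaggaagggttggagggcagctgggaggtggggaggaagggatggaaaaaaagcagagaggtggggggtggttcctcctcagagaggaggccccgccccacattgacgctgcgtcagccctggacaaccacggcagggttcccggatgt
The capitals fall in the stretches of MAGEA3, MAGEB2 and MAGEC1, while the match of MAGEC2 straddles its start, so that its first 6 letters close the printed stretch in lower case. The stretches hold 3 CpG pairs in SSX1, 14 in XAGE1A, 15 in MAGEA3, 15 in MAGEB2, 11 in MAGEC1 and 6 in MAGEC2.

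The MAGEA genes encode antigens that join ubiquitin ligases, MAGEA3 and MAGEA6 through the ligase TRIM28. MAGEA3 (ENSG00000221867) had 0 counts in both KD libraries and 19, 13 and 27 counts in the parent libraries. The groups did not overlap, with parent at 1.20 ± 0.311 CPM (SD, n = 3). Set against a floor of 3 counts over the KD group, which is 0.0988 CPM, the gene was at least 12.2-fold lower in KD (edgeR quasi-likelihood adjusted p = 0.00374; 0.00088 to 0.0178 over the 10 alternatives that gave a value). MAGEA6 has a 300-base start window that is letter for letter that of MAGEA3. It had 0 counts in KD and 8, 6 and 11 in parent, making it at least 5.18-fold lower against the floor. These 2 bounds leave out counting error in parent. The exact lower limits were smaller, 9.77 for MAGEA3 and 3.96 for MAGEA6. Reads shared by this pair may have been divided in a way that the counts do not show.

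MAGEA12 had 0 counts in KD and 6, 3 and 3 in parent, at least 2.55-fold lower against the floor (exact lower limit 1.75). MAGEA2 and its copy MAGEA2B had the same counts as each other, 0 in KD and 3 in every parent library. Each was at least 1.90-fold lower against the floor (exact lower limit 1.24). MAGEA5 had 1 count, in parent replicate 3. All 6 of these MAGEA rows with a count were at 0 in both KD libraries, and 5 of them, MAGEA5 being the exception, had counts in every parent library. MAGEA1, MAGEA4, MAGEA8, MAGEA9, MAGEA9B, MAGEA10 and MAGEA11 had no count in any library. The family sum was 0 in both KD libraries against 39, 28 and 48 counts in parent, or 2.36 ± 0.401 CPM (SD, n = 3). Against the floor, that is at least 23.9-fold lower in KD with all rows and at least 22.0-fold with the MAGEA2 copies counted once. Counting error in parent is left out of both. With 1 KD library left out the floor of 3 counts weighs more, and this bound on the log2 scale went from -4.58 to -3.62 without KD replicate 1 and -3.54 without KD replicate 2.

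MAGEB genes encode a further branch of the same MAGE domain proteins. MAGEB2 (ENSG00000099399) had 0 counts in both KD libraries and 24, 19 and 24 in parent, which came to 1.39 ± 0.125 CPM (SD, n = 3). Against the floor it was at least 14.1-fold lower in KD, with an exact lower limit of 11.1 (edgeR quasi-likelihood adjusted p = 0.00161; 0.000361 to 0.00908 over the alternatives). Its parent libraries were close together. MAGEB1 had 0 counts in KD and 0, 5 and 6 in parent, so 1 parent library was as empty as the KD libraries. MAGEB17 had 0 and 1 counts in KD and 2, 3 and 1 in parent, and the groups overlapped in counts. MAGEB16 had 1 count, in KD replicate 2. MAGEB3, MAGEB4, MAGEB5, MAGEB6, MAGEB10 and MAGEB18 had none. The MAGEB sum was 0 and 2 counts in KD against 26, 27 and 31 in parent, 0.0641 ± 0.0906 against 1.75 ± 0.0924 CPM, and the mean was 27.2-fold lower in KD (exact binomial 95% interval of the pooled counts 7.10 to 222, counting error only). The log2 ratio of the MAGEB sums was -4.77, against -3.77 without KD replicate 1 and -3.10 without KD replicate 2, where KD stands at the floor.

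MAGEC1 encodes the antigen CT7 and MAGEC2 the antigen CT10, which like MAGEA3 binds TRIM28. MAGEC1 (ENSG00000155495) had 0 counts in both KD libraries and 26, 23 and 25 in parent, or 1.54 ± 0.134 CPM (SD, n = 3). Against the floor it was at least 15.6-fold lower in KD, with an exact lower limit of 12.3 (edgeR quasi-likelihood adjusted p = 0.00133; 0.000206 to 0.00864 over the alternatives). MAGEC2 (ENSG00000046774) had 5 and 0 counts in KD and 25, 24 and 19 in parent. It was the one MAGEA, MAGEB or MAGEC gene called that kept reads in KD, and all of them came from KD replicate 1.

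The level of MAGEC2 was 0.169 ± 0.239 CPM (SD, n = 2) in KD and 1.43 ± 0.322 CPM (SD, n = 3) in parent. The log2 fold change was -3.05 ± 0.755 (SE), 8.27-fold lower (edgeR quasi-likelihood adjusted p = 0.0304). The call was lost without KD replicate 2 (log2 fold change -2.05, adjusted p = 0.0661), without parent replicate 1 (adjusted p = 0.0551), without parent replicate 2 (adjusted p = 0.0838) and when low counts were left unfiltered (adjusted p = 0.0558). Without KD replicate 1 the log2 fold change was -7.52, fitted against a KD library at 0. MAGEC3 had no count. The MAGEC sum was 5 and 0 counts in KD against 51, 47 and 44 in parent, and the mean CPM was 17.6-fold lower in KD (exact binomial 95% interval of the pooled counts 7.49 to 56.0). The log2 ratio of the MAGEC sums was -4.14, against -3.14 without KD replicate 2.

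**Figure D1:**
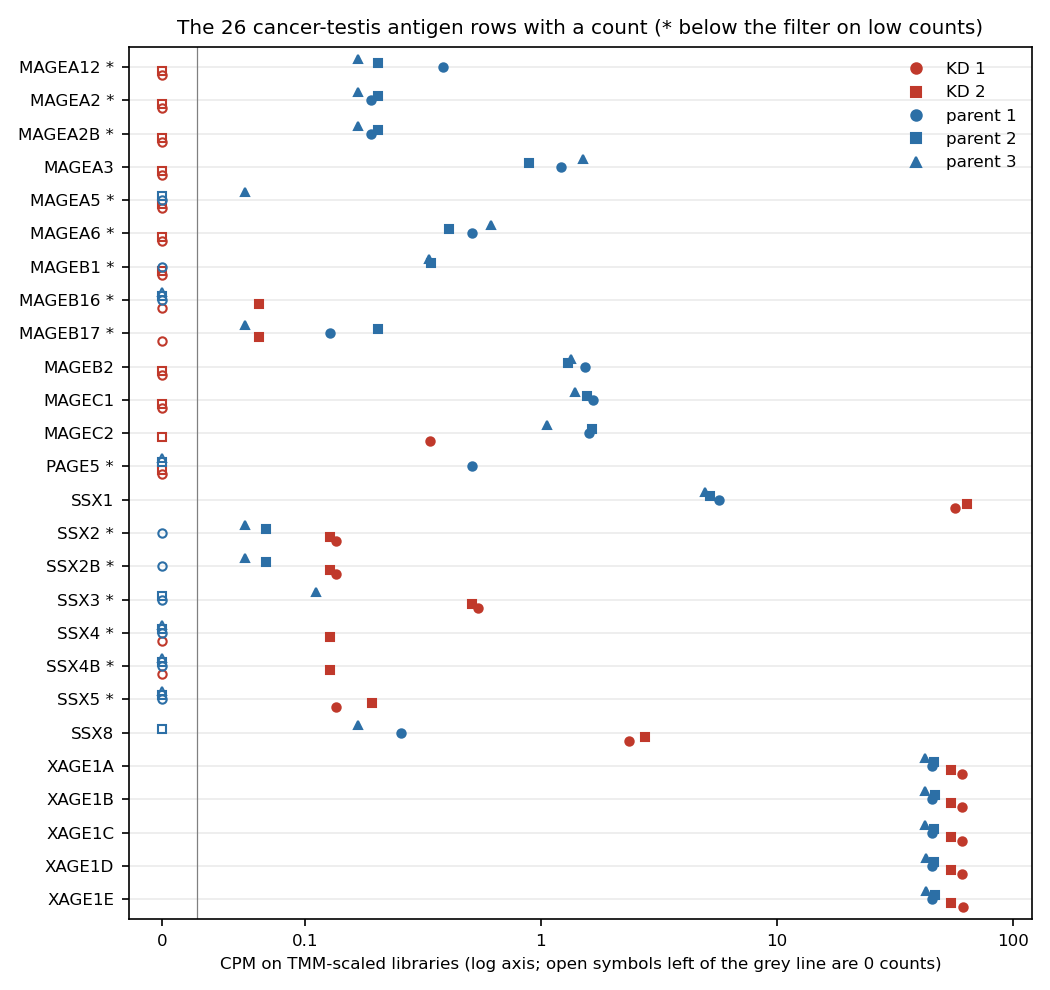
Level of each of the 26 members with a count, in CPM on a log axis, with 1 symbol per library, red for KD and blue for parent; open symbols to the left of the grey line are 0 counts and an asterisk marks rows below the filter on low counts. SSX1 and SSX8 lie far to the right in the 2 KD libraries, the MAGEA rows are at 0 in KD, and the 5 XAGE1 rows repeat each other. Levels are not scaled by gene length and are read within a row.

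SSX1 moved the other way. SSX1 encodes a repressor protein without a DNA-binding domain of its own that associates with Polycomb-marked chromatin, and is the usual partner in the synovial sarcoma fusion together with SSX2. SSX1 (ENSG00000126752) had 839 and 990 counts in KD and 89, 76 and 89 in parent. The gene was thus read in every library, at 56.8 and 63.5 CPM in KD and 5.69, 5.19 and 4.97 CPM in parent. The means were 60.1 ± 4.70 CPM (SD, n = 2) and 5.28 ± 0.365 CPM (SD, n = 3), a log2 fold change of 3.51 ± 0.0879 (SE), or 11.4-fold higher in KD (edgeR quasi-likelihood adjusted p = 8.41e-06). Over the 11 alternatives the log2 fold change stayed between 3.43 and 3.58.

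SSX8 (ENSG00000157965), which RefSeq now names SSX8P and classes as a transcribed pseudogene, had 35 and 43 counts in KD and 4, 0 and 3 in parent. Its level was 2.56 ± 0.273 CPM in KD (SD, n = 2) and 0.141 ± 0.130 CPM in parent (SD, n = 3), a log2 fold change of 4.07 ± 0.562 (SE), 16.8-fold higher (edgeR quasi-likelihood adjusted p = 0.00328; 9.77e-05 to 0.0286 over the alternatives). Both KD libraries lay above every parent library, and the gene entered the test only through them. Without parent replicate 1 the log2 fold change was 4.69, and without parent replicate 2, the library at 0, it was 3.57. Reads of SSX8 and the other SSX rows may be shared, since the copies are alike.

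The 6 remaining SSX rows with a count were below the filter. SSX3 had 8 and 8 counts in KD and 0, 0 and 2 in parent, a pooled ratio of 12.7 (exact binomial 95% interval 2.98 to 114). SSX5 had 2 and 3 counts in KD and 0 in parent, at least 2.63-fold higher against the floor (exact lower limit 1.45). SSX2 and its copy SSX2B each had 2 and 2 counts in KD and 0, 1 and 1 in parent. SSX4 and SSX4B each had 0 and 2 counts in KD and 0 in parent, so their group ranges touched at 0. SSX6, SSX7 and SSX9 had no count. The SSX sum was 888 and 1052 counts in KD against 93, 78 and 96 in parent, 63.8 ± 5.16 against 5.54 ± 0.344 CPM, or 11.5-fold higher and 11.6-fold with copies counted once. SSX1 alone gave most of these counts.

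XAGE1 encodes a small antigen of the GAGE, PAGE and XAGE superfamily, and the count table lists it as 5 rows, XAGE1A to XAGE1E. XAGE1A had 898 and 851 counts in KD and 706, 677 and 759 in parent, and in no library did the 5 rows differ by more than 4 counts. Their counts differed by less than the sampling noise (chi-square at most 0.0147 on 4 degrees of freedom), RefSeq lists XAGE1C, XAGE1D and XAGE1E as synonyms of XAGE1B, and the 300-base start windows of XAGE1A and XAGE1B are identical. The 5 rows are therefore read as 1 measurement. The sources used here do not say how the counting assigned a read that fits all copies.

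XAGE1A stood at 60.8 and 54.5 CPM in KD and 45.1, 46.2 and 42.4 CPM in parent, without overlap. The log2 fold change was 0.37 ± 0.0769 (SE), 1.29-fold higher in KD (edgeR quasi-likelihood adjusted p = 0.0158), and the other 4 rows gave adjusted p from 0.0161 to 0.0169. All 5 calls were lost without KD replicate 1, where the log2 fold change was 0.28 to 0.29 and the adjusted p 0.102 to 0.107. The XAGE sum was 288 ± 22.3 CPM in KD (SD, n = 2) and 223 ± 9.90 CPM in parent (SD, n = 3). Averaged to 1 copy it was 57.7 ± 4.47 and 44.7 ± 1.98 CPM. XAGE2, XAGE2B, XAGE3 and XAGE5 had no count.

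**Figure D2:**
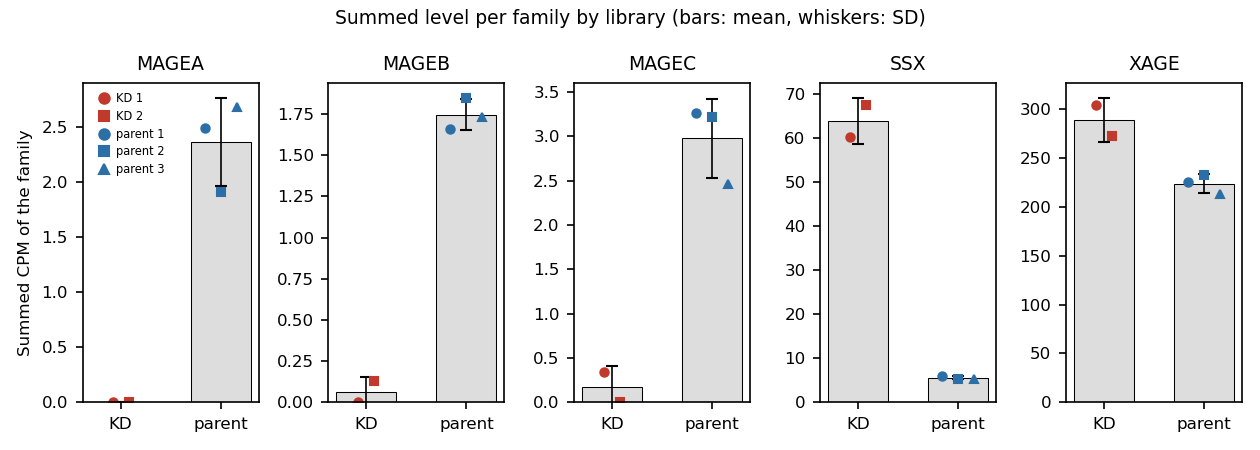
Summed level of each family with counts in more than 1 library, in CPM, by library; grey bars are means, whiskers are SD (KD n = 2, parent n = 3), and each panel has its own axis from 0. The MAGEA, MAGEB and MAGEC sums are near 0 in KD, the SSX sum is 63.8 against 5.54 CPM, and the XAGE sum, which holds 5 copies of 1 signal, is 288 against 223 CPM.

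The remaining families gave no signal or nearly none. PAGE5 had 8 counts in parent replicate 1 and 0 in the other 4 libraries, and the 5 other PAGE rows had none. All 17 GAGE rows, all 3 CTAG rows (CTAG1A and CTAG1B, the NY-ESO-1 genes, and CTAG2) and PRAME were at 0 in the 5 libraries. A group at 0 allows up to 0.0988 CPM in KD and 0.0623 CPM in parent (3 counts over the group, counting error only). The GAGE, CTAG and PRAME rows were thus not detected at this depth in either group. These limits do not cover reads that fit several copies, whose assignment is not stated in the sources used here.

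Counting every row, 10 rows had counts in parent and 0 in both KD libraries, and 4 had counts in KD and 0 in all parent libraries. The former were the 6 MAGEA rows, MAGEB1, MAGEB2, MAGEC1 and PAGE5. The latter were MAGEB16, SSX4, SSX4B and SSX5, with at most 3 counts in a library. The same share over all rows of the series was not computed. Parent has more libraries than KD, and copies with equal counts are listed as separate rows. Nothing is read from these numbers of rows.

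**Figure D3:**
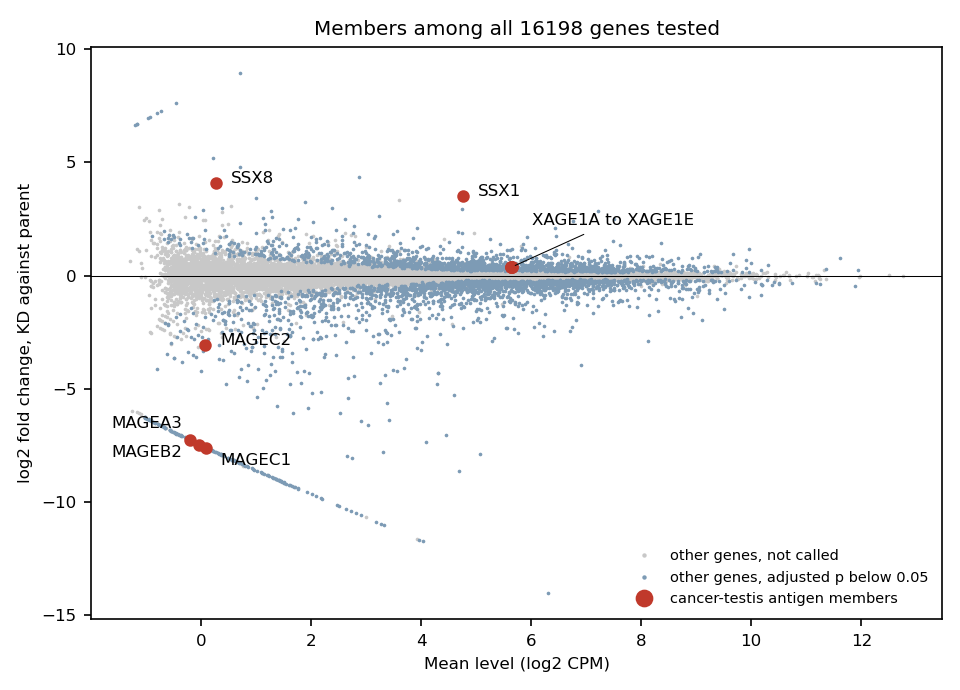
Each point is 1 of the 16198 genes tested, placed by its mean log2 CPM and its log2 fold change of KD against parent; blue points passed an adjusted p of 0.05 and red points are the 11 members tested. SSX1 and SSX8 lie at 3.51 and 4.07, the XAGE1 rows at about 0.37, and the MAGE members at the lower left, where fold changes of genes with 0 counts in KD are set by the fit and are no bound.

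The authors' deposited table of their own comparison gave SSX1 a log2 fold change of 3.50, SSX8 4.15 and XAGE1A 0.36 (adjusted p = 0.0113 by the authors' DESeq2). The authors' deposited table listed MAGEB2 at -6.85, MAGEC1 at -7.00, MAGEC2 at -3.11 and MAGEA3 at -6.65, all in the same direction as the counts above. In the authors' deposited table MAGEA6, which was below the filter used here, had a DESeq2 adjusted p of 0.0332, whereas MAGEA12 (adjusted p = 0.238) and SSX3 (adjusted p = 0.207) did not pass.

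Other cancer-testis genes on the X chromosome were followed as a list of 42 rows, of which 14 had a count and 7 were tested. Of these 7, 4 fell in KD and none rose. SPANXC, SPANXA1, SPANXA2 and DDX53 (log2 fold change -2.37, edgeR adjusted p = 0.0947) passed the filter only through parent, where they were high, so nothing is read from that count. The 4 that fell all belong to the SPANX family of sperm nuclear proteins. SPANXB1 had 26 and 22 counts in KD and 508, 479 and 522 in parent, 19.8-fold lower (edgeR quasi-likelihood adjusted p = 1.17e-05). SPANXC had 5 and 3 counts in KD and 41, 39 and 40 in parent, 9.23-fold lower (edgeR adjusted p = 0.00104).

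SPANXA1 and SPANXA2, a near-identical pair, each had 0 and 2 counts in KD and 15, 14 and 15 in parent, a pooled ratio of 13.9 lower (exact binomial 95% interval 3.62 to 118). Their edgeR adjusted p was 0.0121, and 0.0528 without KD replicate 1. SPANXB1 was therefore well above the floor in both groups, unlike the MAGE members. LAGE3 (log2 fold change 0.30, edgeR adjusted p = 0.123) and CT83 (-0.49, adjusted p = 0.133) did not pass, although LAGE3 passed without KD replicate 2 (adjusted p = 0.0297). In a further list of 53 rows, mostly autosomal cancer-testis genes, 23 were tested, 2 fell and none rose (8.70% called, beside 21.5% over all genes), and the median log2 fold change was -0.12. The 2 were SPAG1 (log2 fold change -0.44, edgeR adjusted p = 0.00371) and SPAG9 (-0.17, adjusted p = 0.0496). The DESeq2 Wald test did not call SPAG9 (adjusted p = 0.0645), nor did edgeR with library totals alone (0.0788), no filter (0.0930) or the replicate block (0.0738). SPAG9 lost the call without KD replicate 1 (0.15), KD replicate 2 (0.258), parent replicate 2 (0.156) or parent replicate 3 (0.128).

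The type II MAGE genes, relatives of the antigens that most tissues express, had 6 members tested, of which 1 rose and none fell (16.7% called, beside 21.5% over all genes). MAGED1, a cofactor of neurotrophin receptor signalling, had a log2 fold change of 0.42 (edgeR quasi-likelihood adjusted p = 0.0335), with adjusted p of 0.201 without KD replicate 1, 0.105 without parent replicate 2 and 0.0742 without parent replicate 3. MAGED2 stood at 138 and 140.2 CPM in KD and parent (log2 fold change -0.02, adjusted p = 0.890). MAGEF1 stood at 49.3 and 48.3 CPM (log2 fold change 0.03, adjusted p = 0.791).

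Of the genes for protein partners of MAGE, SSX and PRAME proteins, 19 were tested, 1 rose and 4 fell (26.3% called, near the 21.5% over all genes), and their median log2 fold change was -0.07. BMI1, a subunit of Polycomb repressive complex 1, had 45.1 ± 3.93 CPM in KD and 76.1 ± 6.59 CPM in parent (log2 fold change -0.76, edgeR quasi-likelihood adjusted p = 0.00252). SS18L1, a relative of the fusion partner SS18, was higher in KD (log2 fold change 0.39, edgeR adjusted p = 0.00528). Both kept their call in every fit with a library left out. TRIM28, the ligase that MAGEA3, MAGEA6 and MAGEC2 bind, had 465 CPM in KD and 407 in parent (adjusted p = 0.0622; it passed with library totals, 0.0457, with the DESeq2 Wald test, 0.0485, and with the replicate block, 0.0139), and SS18 had 113 and 126 CPM (adjusted p = 0.137).

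The other 3 partners called lower lost their call in more than 1 alternative. Apart from libraries left out, RNF2 lost it with the DESeq2 Wald test (adjusted p = 0.228). In edgeR, RNF2 lost it with library totals alone (adjusted p = 0.0536) and no filter (0.0723), and PRKAA1 with no filter (0.0532). RAB3IP, an exchange factor for RAB8 that binds SSX2, had a log2 fold change of -0.60 (edgeR quasi-likelihood adjusted p = 0.0177), with 0.113 without KD replicate 1 and 0.0674 without parent replicate 2. PRKAA1, the AMPK subunit targeted by MAGEA3 and MAGEA6 with TRIM28, had -0.35 (edgeR adjusted p = 0.0251), and passed only when parent replicate 1 was the library left out; the others gave 0.132 and 0.0876 without KD replicates 1 and 2, and 0.0923 and 0.061 without parent replicates 2 and 3. RNF2, the catalytic partner of BMI1, had -0.29 (edgeR adjusted p = 0.0418), with 0.225 and 0.0855 without KD replicates 1 and 2, and 0.0751, 0.134 and 0.0668 without parent replicates 1, 2 and 3.

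Genes that silence or activate germline promoters, chiefly DNA methylation, histone methylation and deacetylation factors and the E2F6 complex, gave 28 tested, 2 higher and 4 lower, a share of 21.4% beside 21.5% over all genes. MBD1, which binds methylated CpG pairs, had 25.8 ± 1.65 CPM in KD and 47.8 ± 0.516 CPM in parent (log2 fold change -0.89, edgeR quasi-likelihood adjusted p = 0.000293), and kept its call in every alternative run. DNMT1, the maintenance DNA methyltransferase, had 358 and 374 CPM (log2 fold change -0.06, adjusted p = 0.615), and HDAC1 had 169 and 180 CPM (adjusted p = 0.203). The activator CTCFL, a germline relative of CTCF, had no count.

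The other calls in that list were small and lost with libraries left out. TET2, which oxidises methylated cytosine, had a log2 fold change of -0.47 (edgeR quasi-likelihood adjusted p = 0.00615; 0.0519 without KD replicate 2). HDAC2, a deacetylase, had -0.26 (edgeR adjusted p = 0.0107; 0.109 and 0.0515 without KD replicates 1 and 2). EHMT2, a histone H3 lysine methyltransferase, had 0.38 (edgeR adjusted p = 0.0139; 0.0714 and 0.059 without KD replicates 1 and 2), and its partner EHMT1 had 0.22 (edgeR adjusted p = 0.0385; 0.105, 0.174, 0.0796 and 0.138 without KD replicates 1 and 2 and parent replicates 1 and 2). HELLS, a remodeller needed for DNA methylation, had -0.25 (edgeR adjusted p = 0.0481; 0.218, 0.0959, 0.15 and 0.11 without KD replicates 1 and 2 and parent replicates 2 and 3).

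The neighbours of the members were read from the RefSeq gene order, taking the nearest tested gene on each side that is no member. Only tested genes with the same symbol in RefSeq could be found. They are not adjacent genes: 2 to 23 other genes lay between a member and such a neighbour, 13 and 19 for SSX1. SSX1 lies between ZNF630 (log2 fold change 0.17, edgeR quasi-likelihood adjusted p = 0.699) and FTSJ1 (0.16, adjusted p = 0.150), neither of which passed. MAGEA3 and MAGEA6 lie between KRT8P8 (0.18, edgeR adjusted p = 0.439) and CETN2 (0.25, adjusted p = 0.0684). The XAGE1 copies lie between IPO7P1 and EIF4A2P4, neither called. Around MAGEB2, CKS1BP6 did not pass (-0.15, edgeR adjusted p = 0.747), and IL1RAPL1 did (-0.49, adjusted p = 0.0438; 0.174, 0.123, 0.0789 and 0.125 without KD replicates 1 and 2 and parent replicates 1 and 2).

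MAGEC1 and MAGEC2 were the members whose nearest tested genes on both sides were lower as well. These were SPANXA2, as above, and SLITRK4, a neuronal membrane protein gene. Between MAGEC1 and these genes lay 3 and 17 other genes, and between MAGEC2 and them 7 and 13. SLITRK4 had 0 counts in both KD libraries and 31, 18 and 15 in parent (edgeR quasi-likelihood adjusted p = 0.00732). Against the floor it was at least 13.7-fold lower, with an exact lower limit of 10.6. Both neighbours passed the filter only through parent, so they could be tested only because they were high there. For the X chromosome, tested genes were matched to RefSeq by symbol, so genes under another symbol there were left out. The 477 genes matched on that chromosome, members aside, had 58 higher, 65 lower and a median log2 fold change of 0.02. The share called there was 25.8%, beside 21.5% over all genes.

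Start windows of 300 bases (250 before the start and 50 after, RefSeq, GRCh38.p14) were found for 53 of the 73 members, giving 71 windows, since a gene can have several starts. The 20 without one include SSX8, SSX3, MAGEA1, MAGEA5, MAGEA10, MAGEB17 and the CTAG rows. Members held 1 to 21 CpG pairs per window with a median of 12, and all 35116 windows of 27305 genes had a median of 14. Windows of members called lower had a median of 16.5 (10 to 21), those of members called higher 15 (5 to 17), and those at 0 in every library 12. Apart from SSX1, the windows called higher belong to the copies XAGE1A and XAGE1B, so they are not independent. The SSX1 window had 5, the lowest of the members called.

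**Figure D4:**
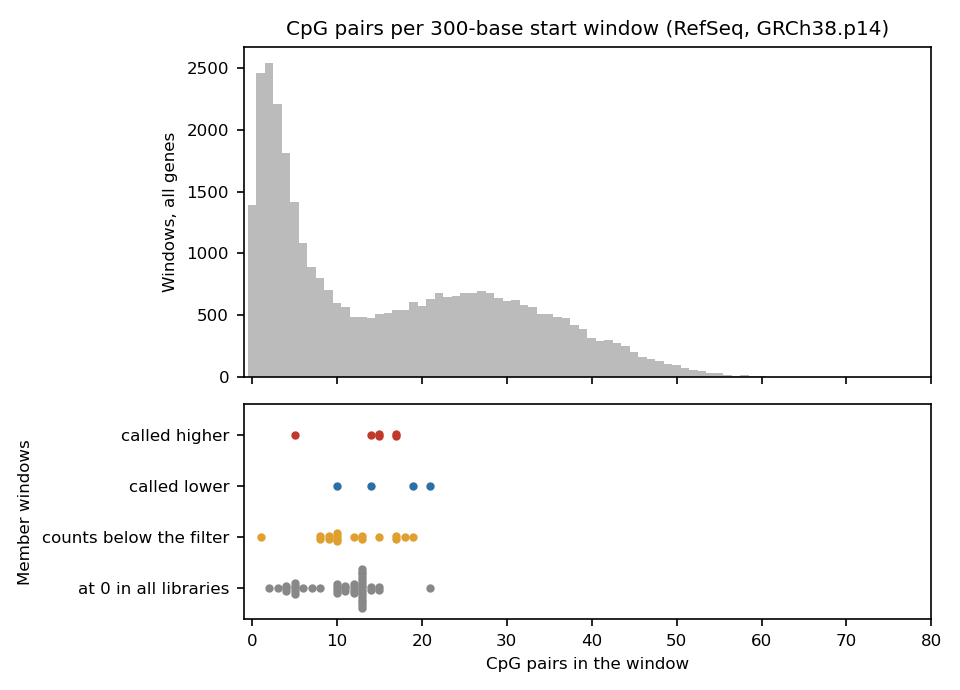
Number of CpG pairs per 300-base start window: the upper panel counts all 35116 windows, and the lower panel places each of the 71 member windows by state. The states overlap along the axis, and the member windows at 0 in all libraries have a median of 12 CpG pairs.

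A G-quadruplex motif, spelled as 4 runs of at least GGG with 1 to 7 bases of any kind between runs on either strand, was present in 31 of the 71 member windows (43.7%) and in 25.0% of all windows. It was in all 13 GAGE windows and in 13 of 16 MAGEA windows, but in none of the 8 SSX windows. Of the members that passed the test, MAGEC2 had the motif, while the windows of MAGEA3, MAGEB2 and MAGEC1 and all 6 windows of members called higher did not. Family members share these letters by duplication, so the windows are not independent, and a match is not a measured fold.

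The letters GGATGTG, on either strand, were in 4.29% of all windows and in 24 of the 71 member windows. All 16 MAGEA windows held them, and 21 of the 30 windows of MAGEA, MAGEB and MAGEC together did so. The 4 windows of the members called lower, 1 for each of MAGEA3, MAGEB2, MAGEC1 and MAGEC2, held them and the 6 windows of the members called higher did not. These letters were picked after reading the sequences shown above, so the split and the shares given here are no evidence about the groups. Apart from SSX1, the 6 windows belong to the copies XAGE1A and XAGE1B, so they are not independent. MAGEA4, MAGEA8, MAGEA9 and MAGEA11, which had no count in any library, held the same letters, so the match did not separate MAGEA genes read in parent from those at 0. Outside MAGE it was in 3 of 41 member windows, those of SSX2 and SSX2B. These copies had the same counts as each other, 2 and 2 in KD and 0, 1 and 1 in parent. They were below the filter and were not tested. Their pooled ratio of KD over parent was 3.17 (exact binomial interval 0.455 to 35.1), so no direction is read from them.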

How the data were processed

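RNA sequencing of 5 MDA-MB-231 libraries (2 KD, 3 parent) was analysed; chromatin libraries and the transcript count table were not used here. Genes were read from the expected counts that the authors deposited as whole numbers per gene; STAR, DESeq2 and hg19 are named, without versions, in the submitters' processing notes, and for the counter, the annotation and strandedness nothing is given in the sources used here. Per the file headers, the authors' deposited comparison holds log2 fold changes, p-values, a Wald score and a mean normalised signal. Its fold changes and adjusted p-values alone were copied.

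Counts were tested in R 4.3.3 with edgeR 4.0.16: filterByExpr (minimum count 10, total 15), TMM scaling, group as the only term, quasi-likelihood test with 3 residual degrees of freedom, Benjamini-Hochberg adjustment over the 16198 genes, threshold 0.05. CPM were computed on TMM-scaled libraries. Family sums are the counts of all rows of a family and have no p-value. Folds against a group at 0 use 3 counts over the group as its floor. The alternatives were DESeq2 1.42.0 size factors and Wald test, library totals, no filter, a minimum count of 30, each library left out, and the replicate block; counting copies once was added after seeing the data. The members and lists were chosen with earlier results of these data known. Named genes are all members with a count, APEX1, and from each list up to 6 called genes with the smallest adjusted p and the 2 most abundant not called; of the marker lists, only those bearing on identity are given. On simulated counts for 15901 genes of this comparison, 72% of genes changed 1.5-fold were recovered, 86% changed 2-fold and 100% changed 4-fold or 8-fold. Of the calls, 9.6% were false. The changed genes were drawn only from genes with mean levels above those of the MAGE members and SSX8. The recovery rates therefore do not cover these low members. Within each group the libraries differed by more than sampling noise (chi-square over degrees of freedom at least 4.03). Depths of 14601078 to 18049386 counts leave the MAGE values resting on few reads.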

Additional observations from a re-analysis of the deposited data

How the results depend on the processing

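Over 11 alternatives, the 11 members tested gave 117 fitted values: 108 kept direction and call, 9 kept direction but not the call (5 XAGE1 rows, MAGEC2 in 4 fits) and none reversed. With each library left out in turn, the number of members called higher ran from 2 (without KD replicate 1, when the XAGE1 rows lost their call) to 7, all genes called higher from 553 to 1413 and lower from 1270 to 1970, and the log2 ratio of sums from -4.71 to -3.54 for MAGEA, -4.80 to -3.10 for MAGEB and -4.26 to -3.14 for MAGEC, with a higher floor where a KD library was left out. All genes called higher numbered 982 by the DESeq2 Wald test; the cause was not tested. With a minimum count of 30, members called lower numbered 0, since none of the 4 MAGE members passed that filter. The labels do not say that their numbers pair the libraries. The correlation of deviations was 0.0868 for the pair of replicates 1 and -0.0180 for the pair of replicates 2. With 2 KD libraries, their deviations from the group mean mirror each other, so this correlation cannot decide on pairing. With the replicate block, fitted on those 2 pairs, 1724 genes were higher and 2224 lower, with 7 members higher and 4 lower. Depth limits every MAGE row: counts of 0 in KD allow up to 0.0988 CPM. The transcript rows and protein identities of the copies were not analysed here.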
